A study of Mus musculus with 9 samples.

Results

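The *Dppa* genes, named developmental pluripotency associated, were found through their expression in early embryos and pluripotent stem cells. The members described here are *Dppa2*, *Dppa3*, *Dppa4* and *Dppa5a*, 4 of the 54232 gene IDs of the deposited counts, and they were chosen by gene symbol through the Ensembl ID. Poly(A) RNA was sequenced from naïve mESCs and primed mEpiSCs at passage 5 (P5) and passage 15 (P15), with 2 libraries for each of these 4 groups, and 1 further library came from mouse embryonic fibroblasts (MEFs). The cells had a C57 × CBA background and carried GFP driven by the distal promoter of *Oct4*. Naïve mESCs grew in medium with serum and LIF (S/L). The primed mEpiSCs were converted from them in medium with bFGF and Activin A (F/A). Both states were kept on MEF feeder cells whose growth had been stopped with mitomycin C, so that feeder RNA may be part of every naïve and primed library. One cell line stands behind the 8 naïve and primed libraries. Their replicates are numbered in the labels with no word on separate cultures, and p-values therefore measure the spread between these libraries, although the study calls its repeats biological.

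Naïve mESCs resemble the epiblast of the blastocyst and primed mEpiSCs the epiblast after implantation. *Dppa2* and *Dppa4* encode DNA-binding proteins with a SAP domain that act as a pair. They are known as activators of *Dux* and of genes of the 2-cell embryo, and as proteins that keep DNA methylation away from developmental promoters in mouse ES cells. *Dppa3* (Stella, PGC7) encodes a maternal protein that protects DNA methylation in the zygote, binds the methylation cofactor Uhrf1 and marks primordial germ cells. *Dppa5a* (Esg1) encodes an RNA-binding protein with a KH domain and belongs to a family with the oocyte genes *Ooep* and *Khdc3*.

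The members lie at 3 loci of the GRCm38 build, with gene models from GENCODE M21. *Dppa4* (ENSMUSG00000058550, chr16:48283733-48294237, plus strand) and *Dppa2* (ENSMUSG00000072419, chr16:48303908-48319723, plus strand) are adjacent and 9.67 kb apart. Their longest transcripts have 7 and 8 exons and coding sequences of 888 and 903 bases, and the best local alignment of these transcripts covers 191 bases without gaps counted, of which 135 are identical (70.7%). *Dppa3* (ENSMUSG00000046323, chr6:122626410-122630272, plus strand) has 4 exons and 450 coding bases. *Dppa5a* (ENSMUSG00000060461, chr9:78367052-78368177, minus strand) is the shortest, with 3 exons and 354 coding bases. No other annotated gene overlaps any of the 4.

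Near-identical copies bear on how reads of these genes were assigned, and how reads with several alignments or the strand were treated in counting is not given in the sources used here. *Dppa5a* has 2 copies on the same chromosome, the unprocessed pseudogenes *Dppa5b* and *Dppa5c*, which are identical to each other over 348 of 348 exonic bases and match *Dppa5a* at 288 of 297 aligned bases (97.0%). *Dppa3* has the processed pseudogene *Dppa3-ps* on chromosome X, with 443 of 451 aligned bases identical (98.2%). For each pair a coding stretch of exon 2 is printed to show how few bases separate a gene from its copy, with the differing bases in capitals. It is the aligned window of 90 bases within a coding exon in which the most bases differ (5 of 90 for *Dppa5a* and *Dppa5b*, 3 of 90 for *Dppa3* and *Dppa3-ps*, whose copy has 1 exon). The positions are chr9:78367766-78367855 (minus strand), chr9:78245794-78245883 (plus strand), chr6:122628577-122628666 (plus strand) and chrX:37625922-37626011 (minus strand) of GRCm38, in the order printed.
Dppa5a: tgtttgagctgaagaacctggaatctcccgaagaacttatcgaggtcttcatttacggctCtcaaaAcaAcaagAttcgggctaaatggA
Dppa5b: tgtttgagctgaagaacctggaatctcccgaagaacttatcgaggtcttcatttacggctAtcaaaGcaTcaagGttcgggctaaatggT
Dppa3: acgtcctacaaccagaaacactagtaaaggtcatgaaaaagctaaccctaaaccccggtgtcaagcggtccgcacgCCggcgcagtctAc
Dppa3-ps: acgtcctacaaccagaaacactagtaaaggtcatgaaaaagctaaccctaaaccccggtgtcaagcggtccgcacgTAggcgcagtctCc

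Of all windows of 100 bases in the transcripts of *Dppa3*, 0% occur unchanged in another annotated transcript, against 3.08% for *Dppa5a*, 14.0% for *Dppa4* and 23.9% for *Dppa2*. With windows of 50 bases the shares were 16.5%, 38.6%, 31.3% and 29.1% in this order, so that the order depends on the window. The annotated copies that share windows of 100 bases with *Dppa2* or *Dppa4* are processed pseudogenes, and each held between 0 and 12 counts in a library. The *Dppa3-ps* pseudogene held 1 count in the 9 libraries together. Counts of *Dppa5b* were 15 and 20 in naïve mESCs at P5 and 77 and 16 at P15, and those of *Dppa5c* were 1318 and 585 at P5 and 58 and 25 at P15. In primed mEpiSCs both had at most 2 counts in a library, and in MEFs they had 0. Since *Dppa5b* and *Dppa5c* are identical in their exons, their counts cannot be told apart and are uncertain. At its highest *Dppa5c* held 1318 counts beside 34462 of *Dppa5a* in the same library. The remaining gene with such a symbol, *Dppa1*, had 0 counts in each of the 9 libraries.

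*Dppa5a* had the highest level of the members in naïve mESCs by a wide margin. Its counts were 34462 and 35497 in naïve mESCs at P5 and 17608 and 20337 at P15. As CPM, counts scaled to a common library total after TMM correction of the library sizes, these were 1735 ± 30.2 CPM and 1299 ± 2.64 CPM (SD, n = 2 each). Per kilobase of exon *Dppa5a* ranked 4 among 21983 protein-coding genes in both naïve libraries at P5 and 11 in both at P15. In primed mEpiSCs its counts were 3250 and 2975 at P5, at 163 ± 2.48 CPM with ranks of 124 and 125. They were 12 and 21 at P15, at 0.941 ± 0.357 CPM (SD, n = 2) with ranks of 11078 and 9927. The 4 groups did not overlap, and the MEF library held 1 count. The share of all genes whose 4 groups lay apart was not counted.

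The adjacent pair *Dppa4* and *Dppa2* was nearly absent from primed mEpiSCs at P15. *Dppa4* held 1763 and 1686 counts in naïve mESCs at P5, 1276 and 1316 at P15, 243 and 238 in primed mEpiSCs at P5 and 3 and 4 at P15. These correspond to 85.5 ± 3.0, 89.1 ± 6.94, 12.6 ± 0.796 and 0.200 ± 0.0389 CPM (SD, n = 2 each). In naïve mESCs the *Dppa4* levels of the passages overlapped, with 83.4 and 87.7 CPM at P5 and 84.2 and 94.0 CPM at P15. *Dppa2* held 1260 and 1214 counts in naïve mESCs at P5, 1343 and 1620 at P15, 125 and 119 in primed mEpiSCs at P5 and 3 and 8 at P15. Its levels were 61.4 ± 1.83, 101 ± 3.32, 6.41 ± 0.275 and 0.313 ± 0.200 CPM (SD, n = 2 each). The 4 groups of *Dppa2* did not overlap, for which no share of all genes was counted. In MEFs *Dppa4* had 1 count and *Dppa2* had 0, which allows up to 3 counts or 0.128 CPM. The same limit was 0.148 to 0.221 CPM in the naïve and primed libraries, and it covers counting error only. For both genes the primed level at P15 lay near it.

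*Dppa3* kept the most of its naïve level in primed mEpiSCs among the 4 genes. It held 1070 and 968 counts in naïve mESCs at P5, 498 and 519 at P15, 176 and 193 in primed mEpiSCs at P5 and 15 and 29 at P15. In CPM the libraries had 53.2 and 47.9, 36.7 and 33.2, 8.75 and 10.7, and 0.861 and 1.65 in the same order. The means were 50.6 ± 3.76, 34.9 ± 2.47, 9.73 ± 1.39 and 1.25 ± 0.556 CPM (SD, n = 2 each). Each group lay apart from the other 3, again without a counted share of all genes, and 2 counts were found in MEFs.

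**Figure D1:**
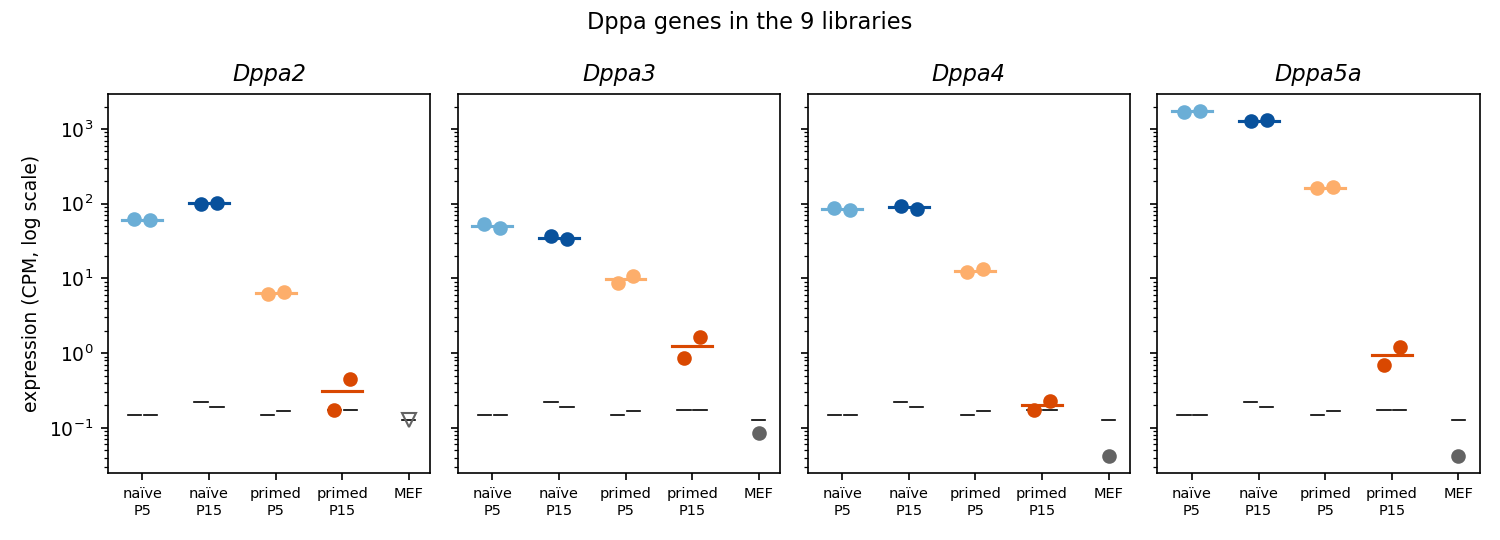
Expression of *Dppa2*, *Dppa3*, *Dppa4* and *Dppa5a* in CPM on a log scale, with a filled point for each library, a coloured line at the mean of a group and a thin black line at the level of 3 counts in each library. The open triangle marks *Dppa2* at 0 counts in MEFs, drawn at that library's 3-count level. In naïve mESCs the levels lie between 33.2 CPM (*Dppa3*) and 1756 CPM (*Dppa5a*), and at P15 the primed libraries lie between 0.172 CPM and 1.65 CPM.

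Levels of different genes were compared per kilobase of the summed exons. In naïve mESCs at P5 the order was *Dppa5a* (2803 ± 48.7 CPM per kilobase), *Dppa3* (56.7 ± 4.21), *Dppa4* (51.5 ± 1.81) and *Dppa2* (25.1 ± 0.748, SD, n = 2 each). The libraries of *Dppa3* (53.7 and 59.6) and *Dppa4* (50.2 and 52.7) were close without overlap. At P15 *Dppa4* came second at 53.6 ± 4.18, while *Dppa2* at 40.4 and 42.3 and *Dppa3* at 37.2 and 41.1 CPM per kilobase overlapped. In primed mEpiSCs at P5 the order was again *Dppa5a* (264 ± 4.01), *Dppa3* (10.9 ± 1.55), *Dppa4* (7.60 ± 0.479) and *Dppa2* (2.62 ± 0.112, SD, n = 2 each). At P15 *Dppa5a* (1.11 and 1.93) overlapped with *Dppa3* (0.965 and 1.85), and *Dppa4* (0.104 and 0.137) with *Dppa2* (0.0704 and 0.186). *Dppa5a* was thus 46.4 and 52.8 times as high as *Dppa3* per kilobase in the 2 naïve libraries at P5, 22.2 and 26.6 times in the primed ones, and 1.04 and 1.15 times in primed mEpiSCs at P15.

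Primed mEpiSCs were compared with naïve mESCs at each passage to see how the conversion and further culture changed these genes. At P5 the members were lower in primed mEpiSCs by between 5.10-fold and 10.4-fold. *Dppa5a* had a log2 fold change of −3.38 (standard error 0.036), *Dppa2* −3.23 (0.089), *Dppa4* −2.73 (0.072) and *Dppa3* −2.35 (0.093). Their adjusted p-values by edgeR's quasi-likelihood test were 1.35e-33, 2.46e-23, 7.51e-24 and 2.19e-19 in the same order. The 4 genes counted as called, with an adjusted p under 0.01 and a change of at least 2-fold, whereas 8.85% of the 16482 genes tested were called lower. The median log2 fold change over all tested genes was 0.0078. In bulk RNA, fewer cells expressing a gene and less RNA per cell cannot be told apart.

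At P15 the differences spread over a much wider range, from 27.8-fold to 1378-fold lower in primed mEpiSCs. *Dppa5a* had a log2 fold change of −10.43 (standard error 0.11), *Dppa4* −8.75 (0.19), *Dppa2* −8.31 (0.17) and *Dppa3* −4.80 (0.18). These standard errors were derived from the fold change and the test's F statistic, and may be too small where counts are few. DESeq2's Wald test gave larger ones, of 0.257, 0.557, 0.447 and 0.272 in the same order. The adjusted p-values by edgeR's quasi-likelihood test were 2.05e-40, 3.33e-31, 8.20e-32 and 3.70e-23, and *Dppa5a* and *Dppa3*, with at least 10 counts in every library, were called while 11% of 15733 tested genes were called lower. *Dppa2* and *Dppa4* passed the filter on low counts through their naïve libraries alone and so had to differ, and their calls are not read against this share. Ordered from the most negative change, *Dppa5a* was at place 12 and *Dppa3* at 350. Because the lower values rest on few counts, ratios of summed counts were also taken with exact 95% intervals for counting error. Naïve mESCs had 1379 times the *Dppa5a* level of primed mEpiSCs (982 to 2003), 444 times the *Dppa4* level (215 to 1106), 323 times the *Dppa2* level (180 to 648) and 27.7 times the *Dppa3* level (20.5 to 38.4). The intervals of *Dppa4* and *Dppa2* overlapped, and the interval of *Dppa3* lay below the others. For *Dppa2* the value depended on 1 library, being −9.12 without primed P15 replicate 2 (8 counts).

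Passage was then compared within each state. In naïve mESCs the members did not move together, and each change was under 2-fold. *Dppa2* rose 1.65-fold from P5 to P15 (log2 fold change 0.72, standard error 0.055, adjusted p from edgeR's quasi-likelihood test = 1.60e-06). *Dppa5a* fell by 0.42 on the log2 scale (standard error 0.036, adjusted p = 5.06e-06) and *Dppa3* by 0.53 (standard error 0.080, adjusted p = 0.000525). *Dppa4* did not pass, at 0.057 (standard error 0.062, adjusted p = 0.585). Of the 15683 genes tested, 5.01% fell and 4.21% rose at an adjusted p under 0.01, and 1.13% did so with a change of at least 2-fold. *Dppa3* no longer passed without the filter on low counts, at −0.54 with an adjusted p of 0.0115 in the same edgeR test. Over the alternatives other than a left-out library and the replicate block, its adjusted p ranged from 6.955e-05 (one fit of all 8 libraries) to 0.0115. The block's p-values are not interpreted, because its fits leave little from which to estimate the spread.

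In primed mEpiSCs the members fell further from P5 to P15. *Dppa5a* had a log2 fold change of −7.46 (standard error 0.12), *Dppa4* −5.96 (0.29), *Dppa2* −4.35 (0.33) and *Dppa3* −2.97 (0.24). The standard errors of DESeq2's Wald test were larger, at 0.262, 0.590, 0.536 and 0.339 for these genes. Adjusted p-values by edgeR's quasi-likelihood test were 3.37e-26, 7.04e-16, 1.42e-11 and 2.67e-11 in this order. *Dppa5a* and *Dppa3* were called, against 8.43% of 15957 genes called lower, at places 17 and 261 from the most negative change. As ratios of summed counts, P5 exceeded P15 by 173 times for *Dppa5a* (95% interval 123 to 252), 63.1 for *Dppa4* (30.4 to 158), 20.4 for *Dppa2* (11.2 to 41.3) and 7.70 for *Dppa3* (5.62 to 10.8). *Dppa2* and *Dppa4* passed the filter here through the P5 libraries alone and so had to differ, and *Dppa2* was at −5.19 without primed P15 replicate 2.

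The difference of the primed against naïve change between the passages was tested in one fit of the 8 libraries. It was −7.03 for *Dppa5a* (adjusted p = 1.53e-29), −6.01 for *Dppa4* (1.43e-17), −5.07 for *Dppa2* (1.28e-15) and −2.43 for *Dppa3* (1.49e-09, by edgeR's quasi-likelihood test). In this fit 4.8% of 16926 genes were called lower. *Dppa2* and *Dppa4* held 3 to 8 counts in a primed P15 library and entered through the other groups. Their calls are therefore not read against this share. The P15 and P5 comparisons hold separate libraries, whereas the difference uses the libraries of all 4 groups. Without primed P15 replicate 2 the value of *Dppa2* was −5.90.

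**Figure D2:**
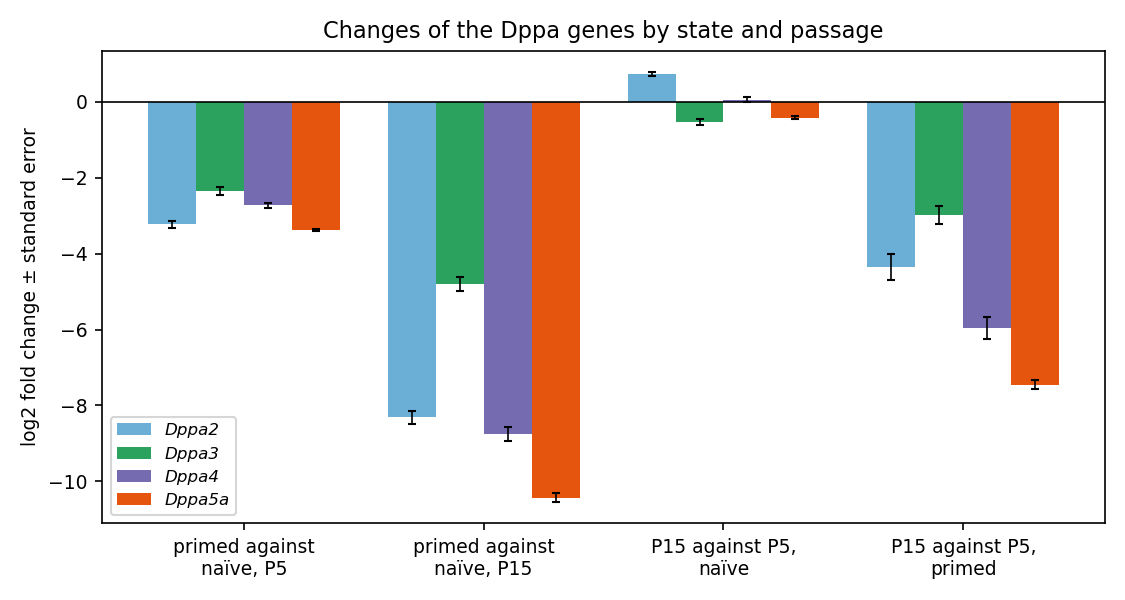
Log2 fold changes of the 4 *Dppa* genes in 4 comparisons, with bars from 0 and error bars of 1 standard error, derived from edgeR's F statistic. In comparisons with primed P15, where counts are few, these error bars may be too short. The primed against naïve bars reach from −2.35 to −3.38 at P5 and from −4.80 to −10.43 at P15, the naïve passage bars lie between −0.53 and 0.72, and the primed passage bars between −2.97 and −7.46.

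The order of the members by the level kept in primed mEpiSCs changed with passage. At P5 primed mEpiSCs held 9.41% of the naïve mean of *Dppa5a*, 10.4% of *Dppa2*, 14.8% of *Dppa4* and 19.2% of *Dppa3*. At P15 they held 0.0724% of *Dppa5a*, 0.224% of *Dppa4*, 0.309% of *Dppa2* and 3.59% of *Dppa3*. Taking each primed library against each naïve one, *Dppa2* ranged from 0.166% to 0.459% and *Dppa4* from 0.183% to 0.270% at P15, so that these neighbours in the order overlapped. For *Dppa3* the range was 2.35% to 4.96%. The median over the 4 members was 12.6% at P5 and 0.267% at P15. Beside it, 12 marker genes of naïve pluripotent cells had a median of 14.6% at P5 (4.94% for *Klf2* to 47.8% for *Tbx3*) and 3.61% at P15 (0.0996% for *Zfp42* to 33.4% for *Tbx3*). The members thus lay within the range of these markers at P5. At P15 the mean of *Dppa5a* was below those of the markers, but *Zfp42* rested on 4 counts in each primed library, and *Nr0b1*, with 7 and 0 counts there, ranged from 0% to 0.400% by pair of libraries, around the 0.0529% to 0.0920% of *Dppa5a*. The 12 markers passed as lower in primed mEpiSCs at both passages, beside 31.1% and 28.4% of all tested genes, 3 of them at P15 through the naïve libraries alone, and *Dppa3* and *Dppa5a* are often counted as naïve genes themselves.

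**Figure D3:**
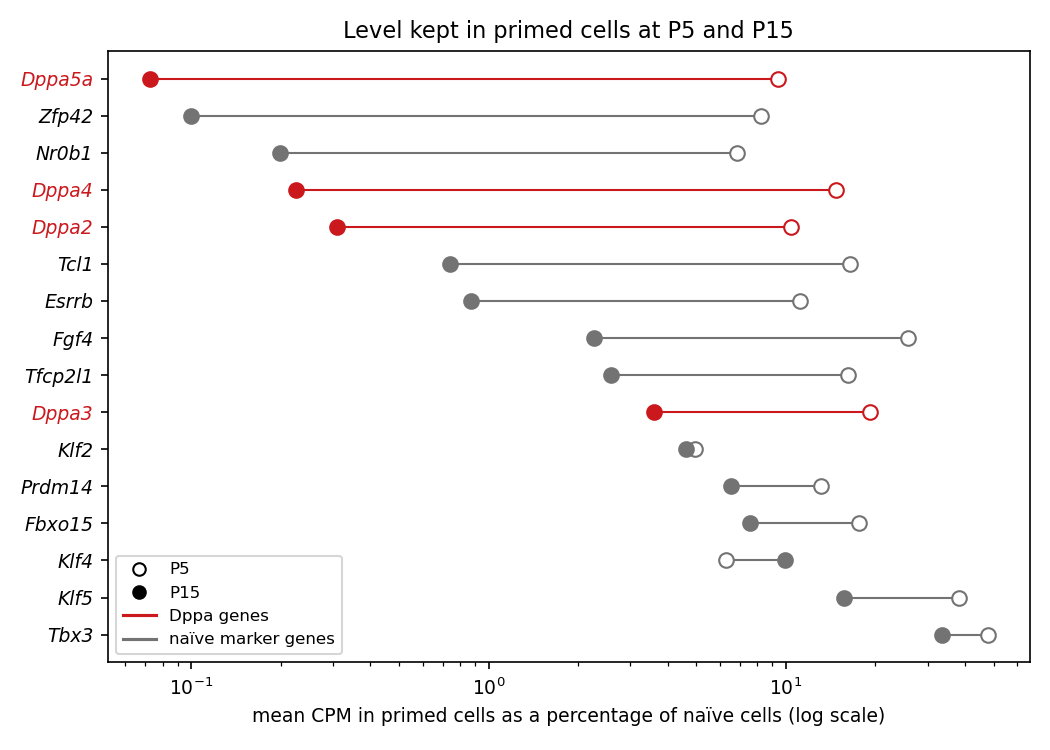
Mean CPM in primed mEpiSCs as a percentage of the mean in naïve mESCs on a log scale, for the 4 *Dppa* genes (red) and 12 naïve marker genes (grey), at P5 (open) and P15 (filled). *Dppa5a* moves from 9.41% to 0.0724%, below *Zfp42* at 0.0996%, while *Dppa3* moves from 19.2% to 3.59%.

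*Dppa2* and *Dppa4* did not stay in a fixed proportion although they are adjacent and act as a pair. Per kilobase, *Dppa4* was 2.06 and 2.04 times as high as *Dppa2* in naïve mESCs at P5 and 2.86 and 2.94 times in primed mEpiSCs at P5. It was 1.40 and 1.20 times as high in naïve mESCs at P15. In primed mEpiSCs at P15 the ratios of 1.47 and 0.736 rest on 3 to 8 counts of each gene in a library. The ratios of the first 3 groups did not overlap. Measured as the root mean square difference between centred log2(CPM + 1) profiles over the 9 libraries, *Dppa2* and *Dppa4* were the closest of the 6 pairs of members, at 0.427, and *Dppa3* and *Dppa5a* the farthest apart, at 2.35. This measure grows with the size of the changes, and Pearson's r over the same 9 libraries gave another order, from 0.966 for *Dppa2* and *Dppa5a* to 0.993 for *Dppa4* and *Dppa5a*, with *Dppa2* and *Dppa4* at 0.988.

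By the same measure over 14536 genes with a mean of at least 1 CPM, the 3 genes closest to each member were found. *Dppa3* had the closest partner, *Dmrt1*, a regulator of germ cells, at 0.168. That gene was at 43.2 and 31.1 CPM in naïve mESCs and 8.02 and 1.23 CPM in primed mEpiSCs (means at P5 and P15). *Pecam1* (0.214), a cell adhesion gene, and the noncoding *Platr14* (0.286) followed. *Dppa4* was closest to *Rbmxl2* (0.274), *Rnf17* (0.280), a germline Tudor domain gene, and *AU018091* (0.287). *Dppa2* was closest to *Nr0b1* (0.314), a nuclear receptor of the naïve network, *Triml2* (0.422) and *Tex19.1* (0.426). For *Dppa5a*, whose changes span the widest range, the genes were *Tdh* (1.07), the threonine dehydrogenase of mouse ES cells, *Zfp42* (1.19) and *Dnmt3l* (1.25). Their larger differences go with values of r between 0.988 and 0.994, while r was between 0.990 and 0.999 for the 9 partners of the other members. These profiles share libraries, sequencing depth and scaling, and likeness was not tested.

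The protein-coding genes around the members were set beside them. Next to *Dppa5a*, *Ooep* (7.93 kb away) was lower in primed mEpiSCs at P5 (log2 fold change −2.86, adjusted p = 6.48e-22). It held 729 and 824 counts in naïve mESCs and 0 and 3 in primed mEpiSCs at P15. *Ddx43* (27.6 kb away), a germline helicase gene, was lower at both passages (−2.84 and −3.20). From P5 to P15 in primed mEpiSCs its log2 fold change was 0.015 with an adjusted p of 0.982, while *Dppa5a* had −7.46. This value of *Ddx43* is imprecise, as it rests on 11 and 8 counts at P5 and 10 and 8 at P15. *Mto1* (80.0 kb) changed by −0.72 and −0.70, *Cgas* (62.3 kb) did not pass at either passage (0.34 and −0.14), and 6 more protein-coding genes within 100 kb had too few counts to be tested.

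Around *Dppa3* the neighbours moved in different directions. *Gdf3* (16.3 kb away), a TGF-beta family ligand, and *Nanog* (77.2 kb), a core pluripotency factor, were lower in primed mEpiSCs at P5, with log2 fold changes of −3.30 and −2.01. At P15 they were at −1.23 and −0.62. Within primed mEpiSCs both rose from P5 to P15, by 2.20 (adjusted p = 3.54e-16) and 1.43 (adjusted p = 4.69e-18), where *Dppa3* fell. *Slc2a3* (97.5 kb), a glucose transporter gene, was at 0.11 and −0.42, and *Apobec1* (24 kb) at 0.24 (adjusted p = 0.128) and 0.82 (adjusted p = 1.26e-05). *Mfap5* (97.1 kb) was at −1.33 and −1.40, and it was at 17.0 CPM in MEFs. The only protein-coding gene within 100 kb of *Dppa2* and *Dppa4* other than themselves, *Gm5485*, had 1 count in all libraries together. All adjusted p-values here are from edgeR's quasi-likelihood test.

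**Figure D4:**
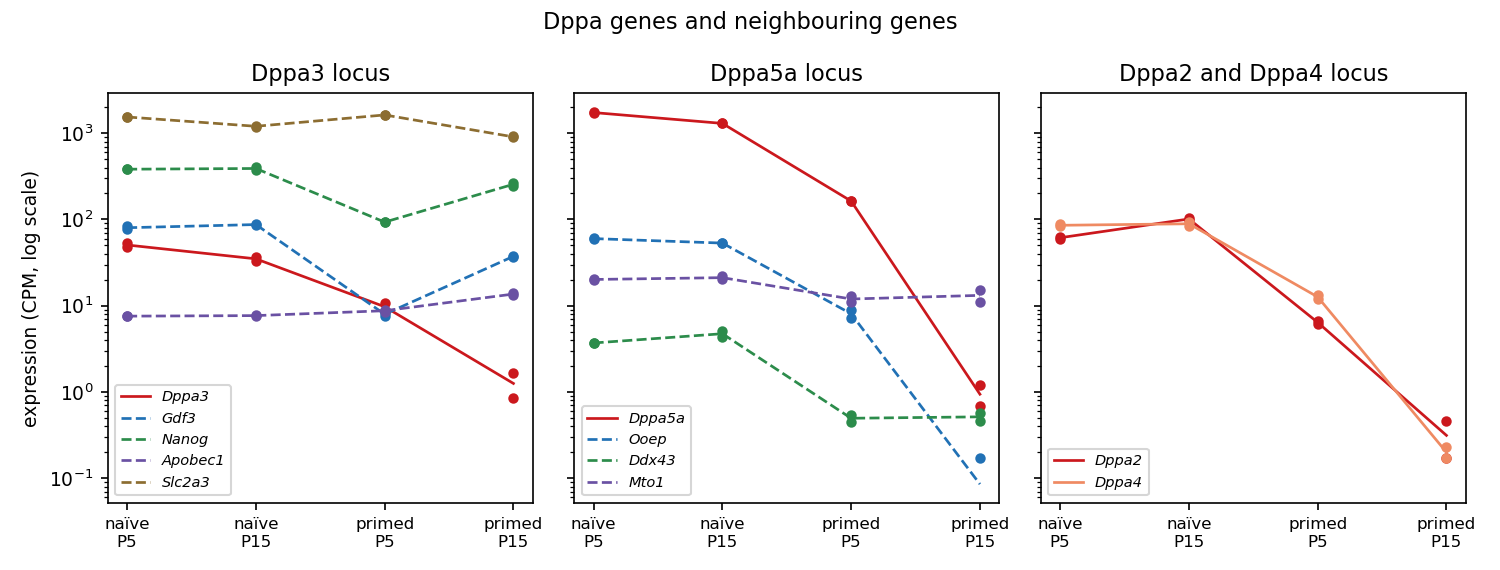
CPM on a log scale of the *Dppa* genes (solid lines) and tested neighbours within 100 kb (dashed lines) at the 3 loci, with a point for each library and lines through the group means. The tested neighbours *Mfap5* and *Cgas* are not drawn. The primed P15 library of *Ooep* with 0 counts has no point. From P5 to P15 in primed mEpiSCs *Dppa3* falls while *Gdf3* and *Nanog* rise, and *Ddx43* lies between 0.444 and 0.574 CPM while *Dppa5a* and *Ooep* fall.

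Genes of the pathways in which the members act were described from lists written from general knowledge. Of 20 genes of the 2-cell embryo (2C genes), the setting in which *Dppa2* and *Dppa4* are known as activators, 11 could be tested at each passage. At both, 10 passed as lower in primed mEpiSCs and *Sp110*, an interferon-responsive gene, as higher. *Zscan4a*, *Zscan4c*, *Zscan4e* and *Zscan4f*, of the zinc finger cluster that marks the 2-cell stage, held 52 to 92 counts in a naïve library and at most 4 in a primed one. Each of the 11 passed the filter through 1 state only and so had to differ, and several of the list are genes the study names from these libraries, so the count is no independent evidence. *Dux* itself (*Duxf3*) had between 3 and 7 counts in naïve libraries and 0 or 1 in primed ones, and was not tested. The list summed to 23.0 to 23.7 CPM in naïve mESCs at P5 and 35.1 to 35.5 CPM at P15, with *Dppa2* at 61.4 and 101 CPM and *Dppa4* at 85.5 and 89.1 CPM in the same groups. Of the 10 list genes tested between these passages *Zscan4c* alone passed, at 0.98 (adjusted p = 0.00437 in the same edgeR test). In primed mEpiSCs the sum was 1.61 to 2.19 CPM at P5 and 1.31 to 2.47 CPM at P15. The list's median log2 fold change was −5.20 at P5 and −8.10 at P15, and −4.39 and −4.66 with genes at 0 counts put at 3 counts per library.

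Of 9 genes of DNA methylation and demethylation, the field of *Dppa3*, all were tested at both passages. At P5 there were 6 lower and 3 higher in primed mEpiSCs at an adjusted p under 0.01, beside 31.1% and 31.2% of all tested genes, with a list median of −0.40. The same split was found at P15, beside 28.4% and 28.2% of all tested genes, with a median of −0.55. *Uhrf1*, whose protein *Dppa3* binds, was at −0.66 and −0.55 and kept 230.8 and 231 CPM in primed mEpiSCs at P5. *Dnmt3l*, a cofactor of the de novo methyltransferases, was at −2.72 and −8.16. *Tet1* (−2.28 and −3.05) and *Tet2* (−1.47 and −2.09), which oxidise 5-methylcytosine, were lower and their relative *Tet3* (1.75 and 1.29) higher. From P5 to P15 in primed mEpiSCs, where *Dppa3* had −2.97, *Dnmt3l* had −5.25, *Uhrf1* rose by 0.26, and 5 of the 9 fell, beside 22.8% of all tested genes.

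Of 10 relatives of *Dppa5a* and genes of the subcortical maternal complex, 5 were tested, and *Ooep*, *Khdc3*, *Dppa5b* and *Dppa5c* passed as lower at each passage. Of these, *Dppa5b* and *Dppa5c* are the near-identical copies of *Dppa5a* with uncertain counts, and are not read as separate genes. The list's median at P15 is the value of *Dppa5c*. *Khdc3* held 84 and 100 counts in naïve mESCs at P5 and 2 and 0 in primed mEpiSCs at P15. *Tle6* did not pass (0.31 and 0.38). The list's median was −2.86 at P5 and −8.55 at P15, or −4.29 with genes at 0 counts put at 3 counts per library. Of 14 germline genes 11 were tested, with 10 lower and *Tdrkh* (0.83 and 1.34) higher at each passage. Among them *Ddx4*, an RNA helicase of germ cells, had −3.55 at P5 and −7.23 at P15, and *Mael*, a piRNA pathway gene, had −2.89 at P5 and 0 and 1 counts in primed mEpiSCs at P15 against 212 and 205 in naïve mESCs. *Sohlh2* and *Hormad1*, genes of oocyte development and meiosis, had −2.02 and −2.32 at P5 and at most 1 count in a primed library at P15. The germline median was −2.61 at P5 and −7.34 at P15, or −6.55 at the bound. At P15, 4 of the 5 *Dppa5a* relatives and 10 of the 11 germline genes passed the filter through 1 state only. The P15 counts therefore carry no support of their own. At P5 the same held for 2 of the 5 and 3 of the 11. Of all tested genes, 31.1% passed as lower at P5 and 28.4% at P15.

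Cell type markers were set beside the members. The MEF library, which stands for the feeder cells, held 0 to 2 counts of each *Dppa* gene. All 20 fibroblast markers were detected in every group, with sums of 9053 to 9082 CPM in naïve and 5059 to 5189 CPM in primed mEpiSCs at P5, and 15308 to 15862 and 12825 to 13248 CPM at P15. The MEF library had 73438 CPM. Single markers went both ways, with 3 higher and 13 lower in primed mEpiSCs at P5 and 6 and 9 at P15. Of all tested genes, 31.2% passed as higher and 31.1% as lower at P5, and 28.2% and 28.4% at P15. *Col1a1*, the largest in MEFs, was at −1.43 and −0.72, while *Dcn* was at 3.56 and 5.23 and, with 457 to 749 CPM in primed mEpiSCs against 211 CPM in MEFs, exceeded the feeder library. Across the list the level ran from 0.585% to 347% of that in MEFs in primed mEpiSCs.

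Of 8 genes expressed in both pluripotent states, 7 were lower in primed mEpiSCs at each passage, beside 31.1% and 28.4% of all tested genes. The list's median log2 fold change was −1.42 at P5 and −0.57 at P15, and *Lin28a* was higher at P5 and did not pass at P15. Between P5 and P15 in primed mEpiSCs 3 of the 8 rose and 3 fell. Of the 15957 genes tested there, 22.8% fell and 508 were called higher. *Tdgf1*, *Pou5f1* and *L1td1* rose by at least 1.35 on the log2 scale, and *Sox2*, *Lin28a* and *Trim71* fell by 0.20 to 0.30. Of 10 markers of primed pluripotent cells, 9 were higher in primed mEpiSCs at each passage, beside 31.2% and 28.2% of all tested genes, and 1 at P5 and 2 at P15 passed the filter through 1 state only. Primitive endoderm markers were higher there in 7 of the 7 tested of 8, 2 of them at P15 through 1 state only. They summed to 335.5 to 341 CPM at P5 and 323 to 330 CPM at P15 against 96.1 to 100.1 and 65.7 to 66.0 CPM in naïve mESCs, but to 417 CPM in MEFs, which express the list's *Pdgfra* (199.6 CPM) and *Dab2* (165 CPM). *Foxa2* and *Sox17*, at 0.298 and 0.128 CPM in MEFs, were at 6.30 and 5.74 on the log2 scale at P5. The list's *Ttr* had at most 1 count in a naïve or primed library, and the presence of primitive endoderm was not tested. Primordial germ cell markers, the cell type that *Dppa3* marks, summed to 178 to 187 CPM in naïve and 81.5 CPM in primed mEpiSCs at P5, and to 167 to 171 and 51.9 to 53.7 CPM at P15. Lower levels in primed mEpiSCs passed for 6 of these 7 markers at the earlier passage and for 5 at the later one, beside 31.1% and 28.4% of all tested genes, and 1 and 2 of the 7 entered through 1 state only. The part of other cells in the members' changes was not tested.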

How the data were processed

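The data were 9 mouse RNA-seq libraries, grouped by the deposited titles, with the early and late columns of the count table read as P5 and P15. The authors used Cutadapt for trimming, HISAT2, set to report several alignments of a read, for alignment to mm10 and featureCounts for counting on Ensembl genes, and the deposited values are raw counts. Versions, the annotation release and how counting treated strand and reads with several alignments are not given in the sources used here. Library totals lay between 14378051 and 20985136 counts (MEFs 25646547), and 92 spike-in entries with 0 counts were left out. Between replicates a chi-square statistic per gene was 2.10 to 3.28, more than counting noise gives.

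From these counts, edgeR 4.0.16 (R 4.3.3) gave CPM with TMM over the 9 libraries and the quasi-likelihood tests. Standard errors are the size of the log2 fold change divided by the square root of the test's F statistic. Each comparison used its own 4 libraries, or 8 for the difference between passages. A gene entered with 10 or more counts in 2 or more libraries of the fit. Benjamini-Hochberg adjustment ran over all genes entered. A gene passed at an adjusted p under 0.01 and was called with a 2-fold change besides, the study's thresholds. MEFs entered no fit. Intervals of count ratios are exact binomial ones. Lengths, copies and distances came from GENCODE M21. The code was tested on simulated data. Named besides the members are genes with a *Dppa* symbol, protein-coding genes within 100 kb, the 3 closest profiles of each member, and genes of lists written by hand, apart from one that is not reported here. Of the pathway lists (2C, DNA methylation, *Dppa5a* relatives, germline) the 3 genes of smallest adjusted p between the states were named, and the others named from these (*Duxf3*, *Sp110*, *Uhrf1*, *Tle6*, *Tdrkh*) and all genes named from marker lists were chosen after their values were seen. Members and lists were chosen with earlier results of these data known. The alternatives tried were scaling by library size alone or by the size factors of DESeq2 1.42.0, its Wald test, no filter on low counts, one fit of all 8 libraries, a replicate block, and leaving out each library in turn.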

Additional observations from a re-analysis of the deposited data

Results flagged for a closer look

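The primed against naïve change of each *Dppa* gene differed between the passages by the test of the difference itself, edgeR's quasi-likelihood test of the product of state and passage over 8 libraries. The log2 difference, P15 minus P5, was −5.07 for *Dppa2* (standard error 0.28, adjusted p = 1.28e-15), −2.43 for *Dppa3* (0.24, 1.49e-09), −6.01 for *Dppa4* (0.27, 1.43e-17) and −7.03 for *Dppa5a* (0.11, 1.53e-29). DESeq2's Wald test gave larger standard errors, of 0.461, 0.287, 0.563 and 0.258 in the same order. *Dppa2* and *Dppa4* entered this fit through groups other than primed P15, where a library held 3 to 8 counts of them. The p-values of these genes are therefore not read as full support. For each gene both primed libraries at P15 lay below both at P5, which by itself does not test the difference. Between these groups 22.8% of all tested genes passed as lower. The share of all genes whose libraries lay apart in this way was not counted.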

How the results depend on the processing

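Of 204 values of the *Dppa* genes under alternatives, 202 kept their direction and their side of the threshold, as did the 53 counts of called genes within 1.5 times. *Dppa2* and *Dppa4* gave no value at P15 with a naïve library left out, as they then failed the low-count filter. The same held between the passages in primed mEpiSCs with a P5 library left out. Without the low-count filter, the fall of *Dppa3* from P5 to P15 in naïve mESCs was −0.54 and no longer passed. The change of *Dppa4* there, which had not passed, ranged from −0.027 (without naïve P15 replicate 1) to 0.14 with 1 library left out. The cause was not tested in either case. The replicate numbers did not pair the libraries (correlations of deviations from −0.078 to 0.067), and a replicate block gave −3.23 for *Dppa2* at P5 and changed no call of a member. With the block, 229 genes were called between the passages in naïve mESCs against 178, a count that rests on the block's p-values and is not interpreted.

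Library size alone moved the median of all genes from 0.0078 to 0.21 at P5, where *Dppa2* was then −3.03, *Dppa3* −2.15, *Dppa4* −2.53 and *Dppa5a* −3.18. The share of called genes that were higher moved from 60.4% to 72.6%. At P15, between passages in primed mEpiSCs and for the difference it moved the median to 0.10, −0.13 and −0.11. With 1 primed P15 library left out, the P15 values ranged from −9.12 to −7.76 for *Dppa2*, −5.31 to −4.38 for *Dppa3*, −8.93 to −8.55 for *Dppa4* and −10.85 to −10.06 for *Dppa5a*, and a group of 1 library is assumed to vary like the others. With 3 to 29 counts of a member in a primed P15 library, depth limits these values.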

Other observations

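*Dppa5c*, the annotated copy of *Dppa5a*, went from 1318 and 585 counts in naïve mESCs at P5 to 58 and 25 at P15 (log2 fold change −4.05, adjusted p = 2.69e-05 in edgeR's quasi-likelihood test), while *Dppa5a* fell by 0.42 on the log2 scale. *Dppa5b*, identical to *Dppa5c* in its exons, did not pass, at 1.90 (adjusted p = 0.0449), with 77 and 16 counts in the 2 libraries at P15. Because exonic reads of these copies cannot be told apart, neither value is read as a change of that gene. The replicates of both copies lay further apart than those of *Dppa5a*, whose counts were 34462 and 35497 at P5.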
